A study of Mus musculus with 12 samples.

Results

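In a set of lines labelled as mouse breast cancer, 10 microRNAs (miRNAs) were read on all 3 arrays of the line 67NR and on none of the 9 arrays of 168FARN, 4TO7 and 4T1. The files name them mmu-miR-192, mmu-miR-194, mmu-miR-197, mmu-miR-218, mmu-miR-421, mmu-miR-423-3p, mmu-miR-542-5p, mmu-miR-551b, mmu-miR-590-5p and mmu-miR-874, and the prefix for mouse is dropped from here on. They are 10 of the 577 miRNAs on the array. A miRNA counts as read on an array when more than 0.5 of the spots of its brightest probe are marked as well above background by the scanner software. The 10 were chosen by these calls on the signals described here, so the contrast of 67NR with the other lines is given for them as a description, with no test. In all 14 miRNAs met the criterion. Of the 4 not in the list, 3 belong to Hox or Dlk1-Dio3 loci, which were left out, and miR-135a* belongs to neither.

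The arrays are one-colour Agilent mouse miRNA arrays, on which labelled RNA binds to short probes, and a brighter spot stands for more of a miRNA. The 4 lines, with 3 arrays each, are labelled as wild type, of BALB/c background, from female mice and from spontaneous breast cancer. The labels call 67NR, 168FARN and 4TO7 non-metastatic and 4T1 metastatic, and no line was given a treatment in the labels. Each array received 100 ng of total RNA extracted with Trizol. The submitters present the lines as a tumour progression model whose members stand for different steps of metastasis. Each group is 1 cell line, and the labels do not say whether its 3 repeats are separate cultures, so SDs and p-values cover the spread between these samples alone, which may be technical. Precision is limited by having 3 arrays per line, and fewer cells that make a miRNA cannot be told apart from less of it per cell.

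A miRNA is cut from a hairpin in a longer transcript, and either arm of the hairpin can give a mature strand. The mature strand guides a silencing complex to messenger RNAs, mostly through its seed, bases 2 to 8 from the 5′ end, so miRNAs with the same seed share many targets. Hairpins that lie close together are often cut from 1 transcript, and many lie in introns of protein-coding genes.

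Mature sequences of 6 of the 10 miRNAs were found in RefSeq (build GRCm38.p6). They are printed 5′ to 3′ with the seed in capitals, since miRNAs are grouped into families by it. The array's older names without an arm were taken as the 5p strand for miR-192, miR-194 and miR-218 and as the 3p strand for miR-551b.
miR-192: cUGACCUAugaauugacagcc
miR-194: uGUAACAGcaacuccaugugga
miR-218: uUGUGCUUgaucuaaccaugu
miR-551b: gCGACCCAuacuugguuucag
miR-423-3p: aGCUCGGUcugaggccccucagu
miR-542-5p: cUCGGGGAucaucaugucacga
The other 4 are miR-197, miR-421, miR-590-5p and miR-874. No pair of the 6 shares a seed. Among 1679 mature names, miR-192 shares its seed with miR-215-5p, miR-218 with miR-7002-3p and miR-542-5p with miR-6966-5p, and the other 3 seeds had no second holder. The 6 strands are 21 to 23 bases long, and their GC content runs from 38.1% in miR-218 to 65.2% in miR-423-3p. To show the shared seed and the other arms of 2 hairpins, which have probes of their own, 3 more strands are printed in the same way.
miR-215: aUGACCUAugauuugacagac
miR-423-5p: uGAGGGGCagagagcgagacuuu
miR-542-3p: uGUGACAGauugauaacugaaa

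The arrays labelled 67NR stood apart from the other 9 beyond the listed miRNAs. The scaling value of an array is the 75th percentile over the 170 probes read on all 12 arrays, and it was 358 to 459.6 units on the 67NR arrays, against 599.8 to 1213 on the others. At most 161 miRNAs were read on a 67NR array, against 147 to 158 on those of 4TO7, 166 to 187 of 4T1 and 176 to 191 of 168FARN. The counts of 67NR and 4TO7 overlapped, so the number read does not set 67NR apart from 4TO7. Of 102 miRNAs on a list of rodent-type names (numbers that, as far as known, had no human counterpart when the array was made), 3 were read on all arrays of 67NR (miR-697, miR-709 and miR-712), against 27 on those of 168FARN, 21 of 4TO7 and 22 of 4T1. The other lines differed among themselves in these names too. Strands of miR-465c, miR-470, miR-471, miR-741, miR-742, miR-743a, miR-878, miR-880, miR-881 and miR-883a were read on all arrays in 168FARN alone. Those of miR-297a, miR-466c, miR-467a and miR-669a were read on all arrays in 4TO7 and 4T1 but not in 168FARN. The 102 summed to 147 to 287 units on a 67NR array, to 3883 to 5955 on one of 168FARN, and to 2249 to 2855 on those of 4TO7 and 4T1. The 4 control probes named hur_5 averaged 179.9 to 207 units on the 67NR arrays and 1.25 to 6.36 on the others. Whether the arrays labelled 67NR hold RNA of a mouse line cannot be told from these values. Every value given for 67NR below is that of the arrays so labelled. The origin of that RNA was not tested, nor was the part of these features in the results.

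The first 3 miRNAs were bright in 67NR and gave no signal beyond background in the other lines. miR-218 is encoded by 2 hairpins, in introns of the axon guidance genes Slit2 and Slit3, and is known to target their receptor Robo1. Its mature strand lies at chr5:48223966-48223986 and at chr11:35616840-35616860 (GRCm38.p6, plus strand), and the array cannot tell the copies apart. The processed signal, in the scanner's units after background subtraction, was 386, 384 and 302 on the 3 arrays of 67NR. In 168FARN it was 1.17, 0.155 and -0.781, for 4TO7 0.269, 0.180 and 1.33 and for 4T1 -0.652, 0.0438 and -1.03. All 9 other arrays lay around 0, far below the 67NR arrays. miR-590-5p, known for targeting a receptor of TGF-beta, read 207, 227 and 172 units in 67NR. Signals were 0.197, 0.194 and 1.10 for 168FARN, 0.837, 2.33 and 3.93 for 4TO7 and 0.862, 1.25 and -0.803 for 4T1. The groups again did not overlap, and 4TO7 replicate 3 was the highest of the other arrays. miR-551b lies in an intron of Egfem1, with its mature strand at chr3:29416879-29416899 on the plus strand. It read 113, 121 and 92.1 units in 67NR. The 168FARN arrays gave 0.722, 2.90 and 0.670, the 4TO7 arrays 0.495, 1.44 and 1.92 and the 4T1 arrays 3.69, 1.18 and 0.253. The 67NR arrays lay above all others, of which 4T1 replicate 1 was the highest.

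miR-192 and miR-194 are both encoded on the same stretch of chromosome 19, where the hairpins Mir194-2 and Mir192 are 115 bases apart outside any listed host gene. Both are known as miRNAs of liver, gut and kidney that p53 can induce. A second hairpin of miR-194, Mir194-1, lies on chromosome 1 in an intron of Iars2, 195 bases from Mir215. The mature strand of miR-192 lies at chr19:6264857-6264877, and that of miR-194 at chr19:6264658-6264679 and chr1:185313325-185313346. The array cannot tell the copies of miR-194 apart, and its annotation places the probes of miR-194 on chromosome 1. miR-192 read 69.5, 73.8 and 55.2 units in 67NR. In 168FARN it was 9.77, 9.60 and 4.95, for 4TO7 5.76, 3.84 and 6.79 and for 4T1 6.13, 7.41 and 3.20. Unlike miR-218, it kept a low positive signal on all 9 other arrays, of which 168FARN replicates 1 and 2 were the highest. miR-194 read 26.1, 24.9 and 20.5 units in 67NR. Signals were 3.61, 1.29 and 0.775 for 168FARN, -0.0353, 0.668 and 1.68 for 4TO7 and 2.23, 1.92 and 1.27 for 4T1. The 67NR arrays were all above the 9 others, with 168FARN replicate 1 the nearest. miR-215, which has the seed of miR-192 and shares a locus with the other copy of miR-194, was unread on all 12 arrays, with signals from -0.887 to 2.56. Of the other liver, gut, kidney and pancreas markers, 0 of 5 (miR-122, miR-215, miR-375, miR-216a and miR-217) were read on all arrays of any line, and their summed signal in 67NR was -0.95 to 6.11.

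miR-421 and miR-542-5p come from the X chromosome. miR-421, known for targeting the DNA damage kinase ATM, lies with Mir374b in the long non-coding RNA Ftx, 63 bases from it. It read 52.5, 50.1 and 37.2 units in 67NR. The 168FARN arrays gave 10.6, 10.23 and 9.70, the 4TO7 arrays 6.03, 4.45 and 7.27 and the 4T1 arrays 12.4, 11.7 and 7.40. No array of another line reached the dimmest of 67NR, and 4T1 replicate 1 was the highest of them. miR-542-5p is the 5p arm of the hairpin Mir542, with its mature strand at chrX:53049453-53049474 (minus strand), next to the miR-322 and miR-503 cluster, which is known for miRNAs that restrain the cell cycle. It read 23.6, 25.9 and 19.5 units in 67NR. In 168FARN it was 5.33, 6.35 and 1.82, for 4TO7 4.76, 6.94 and 5.36 and for 4T1 7.73, 11.4 and 9.86. The 67NR arrays were again above all others, with 4T1 replicate 2 the nearest.

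miR-197, miR-423-3p and miR-874 completed the list. miR-197, known for targeting the tumour suppressor TUSC2, read 41.4, 41.8 and 38.2 units in 67NR. Signals were 5.88, 7.06 and 6.12 for 168FARN, 4.28, 5.81 and 3.94 for 4TO7 and 6.56, 6.87 and 5.87 for 4T1. On these unscaled signals its 67NR arrays were tight and the 3 other lines lay close together. After scaling its SD over the 67NR arrays, 0.13 on the log2 scale, was the largest among the listed miRNAs. miR-423-3p, an arm of a hairpin made in most tissues, lies in Nsrp1, a splicing regulator gene, at chr11:77078086-77078108 on the minus strand. It read 23.1, 20.6 and 17.9 units in 67NR. The 168FARN arrays gave 8.71, 5.78 and 4.95, the 4TO7 arrays 4.92, 4.95 and 2.39 and the 4T1 arrays 5.10, 6.33 and 6.38. The highest of the other arrays, 168FARN replicate 1, was below the dimmest of 67NR. miR-874, in an intron of the ubiquitin ligase adaptor gene Klhl3 on chromosome 13, read 33.4, 27.9 and 23.8 units in 67NR. In 168FARN it was 3.54, 6.26 and 2.15, for 4TO7 0.662, 1.89 and 5.96 and for 4T1 3.16, 2.37 and 1.92. Its highest other arrays were 168FARN replicate 2 and 4TO7 replicate 3.

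**Figure D1:**
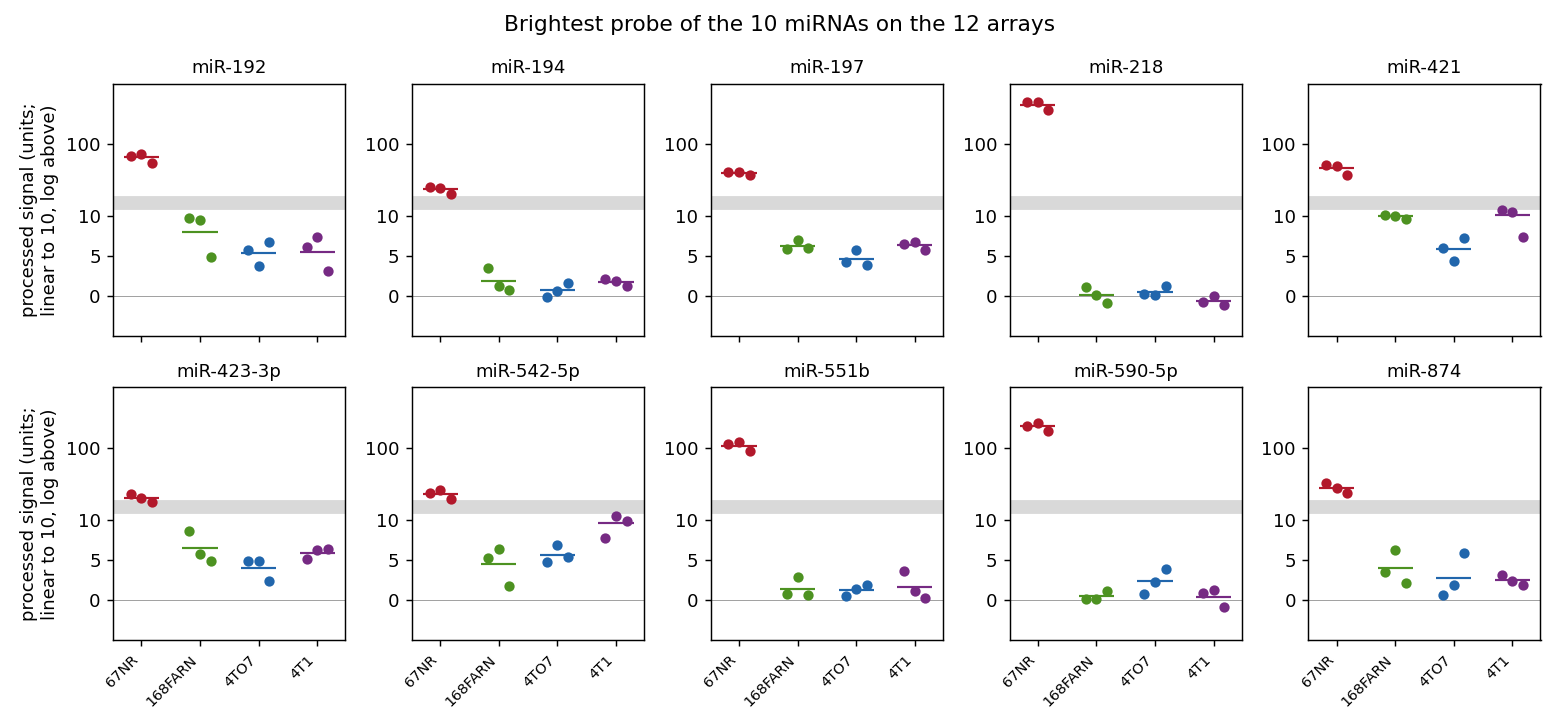
Processed signal (vertical axis, scanner units, linear to 10 and logarithmic above) of the brightest probe of each of the 10 miRNAs on the 3 arrays of each line; points are arrays, bars are means, and the grey band runs from 12.6 to 18.5 units, the range over arrays of the lowest signal of a read probe. The 67NR points lie above the 9 others in all 10 panels, and the other lines lie between -1.03 and 1.33 for miR-218 and between 4.45 and 12.4 for miR-421.

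In all 10 miRNAs every 67NR array lay above all 9 others, as it did for 41.1% of the 224 miRNAs tested (25.4% with no scaling and 54.0% with the normexp background, both again with all 10). Since the rule used this contrast, nothing is read from that count. Array 3 of 67NR was the dimmest of the 3 for all 10 miRNAs. After scaling, the SD over the 3 arrays of 67NR was 0.02 to 0.13 on the log2 scale, and all 10 miRNAs were at the floor of -5.58 (log2) on all 9 other arrays. The floor is the median over arrays of the lowest scaled level of a read probe, and values at it have no order.

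For a miRNA unread in a line only a lower bound of the fold can be given. It sets the mean scaled level of the 67NR arrays against the lowest level of a read probe on each array of the other line. The bounds were the same against 168FARN and 4T1, where the floor set them, and lower against 4TO7. miR-218 was at least 40.4-fold higher in 67NR than in 168FARN and 4T1, and at least 35.7-fold higher than in 4TO7. For miR-590-5p the bounds were at least 22.9-fold and 20.2-fold, and for miR-551b at least 12.3-fold and 10.9-fold. They were at least 7.48-fold and 6.60-fold for miR-192, and at least 2.70-fold and 2.39-fold for miR-194. A bound depends on how far a miRNA stands above the reading limit, so a small one, as for miR-194, does not show a small difference. miR-421 was at least 5.25-fold and 4.64-fold higher, and miR-197 at least 4.60-fold and 4.07-fold. The smallest bounds were at least 3.20-fold and 2.83-fold for miR-874, 2.60-fold and 2.30-fold for miR-542-5p, and 2.33-fold and 2.05-fold for miR-423-3p. The 67NR arrays have the lowest scaling values, so scaling raises these bounds, and the floor and the background correction move them too. With no scaling the lowest bound over the 3 lines was at least 23.8-fold for miR-218, 13.5-fold for miR-590-5p, 7.26-fold for miR-551b, 4.41-fold for miR-192, 3.10-fold for miR-421, 2.72-fold for miR-197, 1.89-fold for miR-874, 1.59-fold for miR-194, 1.54-fold for miR-542-5p and 1.37-fold for miR-423-3p. With the floor doubled it ran from at least 20.2-fold for miR-218 to 1.60-fold for miR-874, 1.35-fold for miR-194, 1.302-fold for miR-542-5p and 1.16-fold for miR-423-3p. With the normexp background, which adds an offset to every signal, it ran from at least 8.04-fold for miR-218 to 1.61-fold for miR-423-3p, with 1.66-fold for miR-542-5p and 1.78-fold for miR-874. With the mean of all probes miR-542-5p kept at least 1.03-fold, and miR-423-3p had no bound above 1 against 4TO7. The software's total signal, which combines the probes of a miRNA, gave the highest values of these settings, from 6.76-fold for miR-542-5p to at least 282-fold for miR-218. Where a miRNA's own level in the other line lay above the lowest level read, that level was the reference. The value is then a ratio to a measured level and no lower bound, as for miR-192, miR-197, miR-421 and miR-542-5p here. For miR-542-5p this also entered the value against 4TO7 with the normexp background.

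The 12 arrays lie on 2 slides, and slide 1 holds the 3 arrays of 67NR and replicate 1 of 168FARN, so slide and line can be separated through that 1 array only. On slide 1 alone the bounds of 67NR over 168FARN replicate 1 ran from at least 2.33-fold for miR-423-3p to at least 40.4-fold for miR-218, and with no scaling from at least 1.45-fold to at least 25.2-fold. The scaled bounds had to equal those against all 3 arrays of 168FARN, since the floor set the limit on each of them. They therefore cannot show whether the slide had a part. The slide mate was the highest of the 3 arrays of 168FARN for 5 of the 10 miRNAs, and unread for all 10. It read 1.17 units for miR-218, where the 67NR arrays beside it read 302 to 386.

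How far the other lines are without these miRNAs depends on the call. The software's more lenient mark, a signal that is positive and significant against the local background, was set in all 9 other arrays for miR-421 and in 8 of 9 for miR-192, miR-197, miR-423-3p and miR-542-5p. It was set in 3 of 9 for miR-874, in 1 for miR-194, and in 0 of 9 for miR-218, miR-551b and miR-590-5p. By that mark 3 of the 10 would be called in 67NR alone. The software's own detection flag, which takes all probes of a miRNA together, was set elsewhere for miR-192 (2 arrays of 168FARN), miR-421 (2 of 168FARN and 2 of 4T1) and miR-542-5p (2 of 4T1), which leaves 7 in 67NR alone.

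The negative control spots give another measure of background. Their 95th percentile was 4.92 to 7.86 units on the other 9 arrays. The brightest probe exceeded its array's percentile on 7 of the 9 arrays for miR-421, 5 for miR-192, 4 for miR-197 and miR-542-5p, 3 for miR-423-3p and 2 for miR-874, and on 0 for miR-194, miR-218, miR-551b and miR-590-5p. That percentile is of single spots, while a probe's value is a mean over its spots, so it is a strict limit. The highest mean of a negative control probe was 1.49 to 2.44 units in 168FARN, 1.87 to 5.17 in 4TO7 and 3.01 to 4.60 in 4T1. miR-421 lay above that mean on every other array. For the 6 named first the signal in the other lines thus passed a limit of background on some or all arrays. Being unread does not show that they are absent. Counted by spot, 246 of 249 spots of the 10 brightest probes carried the mark of being well above background in 67NR, and 7 of 747 in the other lines. Those 7 were 4 spots of miR-421, 2 of miR-874 and 1 of miR-542-5p.

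**Figure D2:**
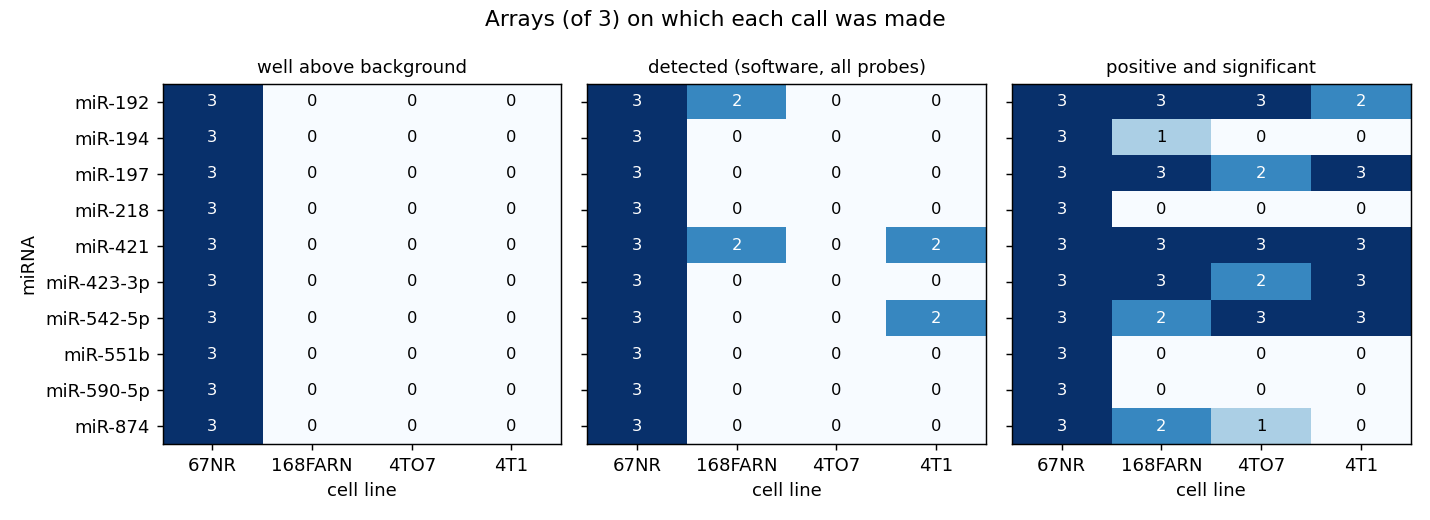
Number of arrays, of 3 per line, on which each of the 10 miRNAs (vertical axis) was called in each line (horizontal axis) by 3 marks of the scanner software; darker cells are more arrays. All 10 are called on 3 arrays of 67NR by each mark, and by the positive and significant mark miR-218, miR-551b and miR-590-5p are the 3 with 0 in every other line.

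The 10 miRNAs have 25 probes in all, which bind stretches of different length of the same strand, so their signals are not independent. The files give 20 of the 25 a position on build mm9 and mark 5 as unmapped, the 2 of miR-197 and the 3 of miR-590-5p. None of the 25 was read on any of the 9 other arrays. Of the 15 dimmer probes, 6 were read on all 3 arrays of 67NR, for miR-192, miR-218, miR-542-5p, miR-551b and, with 2 probes, miR-590-5p. The dimmer probe of miR-218 had a mean of 238 ± 30.5 units in 67NR (SD, n = 3), against 357 ± 47.9 for the brightest, and at most 2.16 on the other arrays. Those of miR-590-5p had means of 117 ± 15.3 and 44.9 ± 5.002, with at most 2.16 and 1.73 elsewhere. The dimmer probe of miR-551b had a mean of 32.4 ± 3.99 and that of miR-192 of 28.7 ± 3.35. For these 4 miRNAs every probe was read in 67NR and nowhere else.

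For 2 miRNAs a dimmer probe was read on 2 of the 3 arrays of 67NR: miR-197 at 19.3 ± 1.83 units and miR-423-3p at 15.2 ± 0.74. The dimmer probes of miR-194 (7.45 ± 1.44), miR-421 (8.77 ± 1.65) and miR-874 (9.21 ± 1.74) were unread on all arrays. These 5 thus rest on 1 probe read on every 67NR array. The remaining dimmer probes of miR-423-3p and miR-542-5p, 2 each, were at background in 67NR too, with means from -3.06 to 2.84. The shortest of these probes match only 11 bases of miR-423-3p and 16 of miR-542-5p, and the brightest match 14 and 19.

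**Figure D3:**
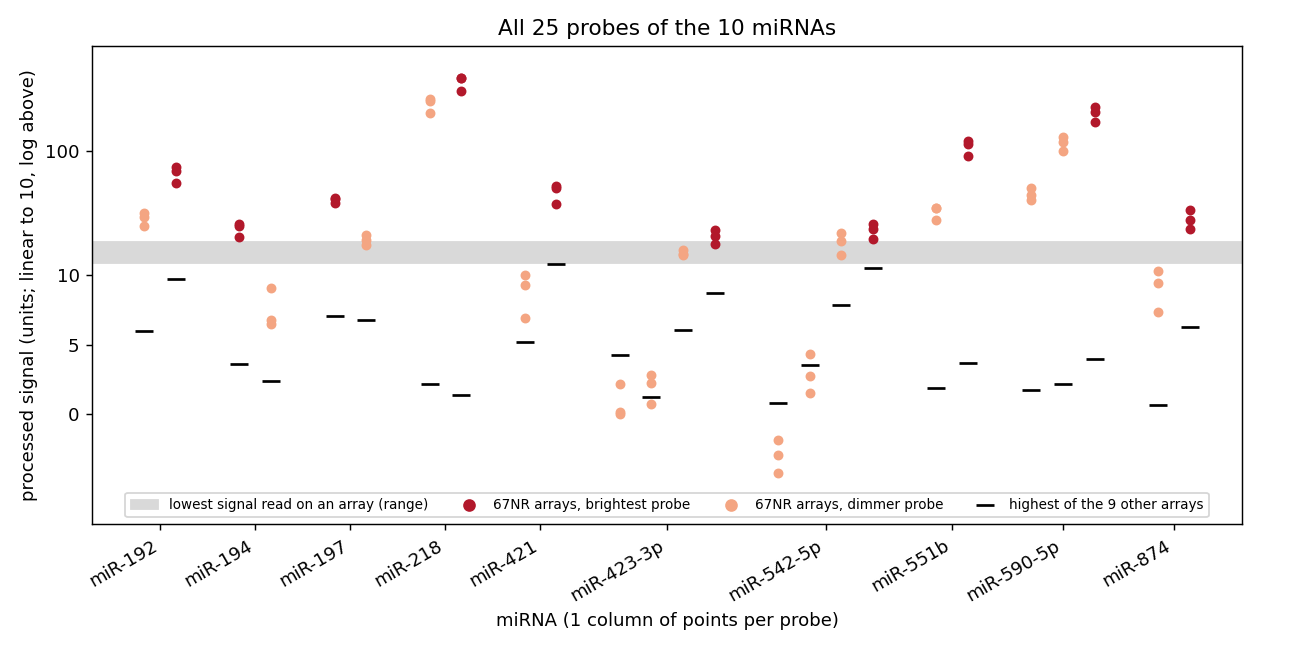
Processed signal (vertical axis, scanner units, linear to 10 and logarithmic above) of all 25 probes of the 10 miRNAs, 1 column per probe; points are the 3 arrays of 67NR, dark for the brightest probe and light for dimmer ones, black dashes are the highest of the 9 other arrays, and the grey band is the range of the lowest signal read on an array. The dimmer probes of miR-218, miR-551b, miR-590-5p and miR-192 lie above the band, and no dash does.

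The rule has a threshold, and miRNAs lay close to it on either side. The dimmest inside it were miR-423-3p, with a mean of 20.5 ± 2.60 units in 67NR (SD, n = 3), and miR-542-5p with 23.0 ± 3.26. Just outside, miR-505 (56.5 ± 5.54 in 67NR) and miR-290-5p (19.9 ± 1.76) were read on all 67NR arrays and on 1 other, with means in 4T1 of 13.0 ± 1.66 and 10.1 ± 2.80. Another 5, miR-342-5p, miR-129-3p, miR-455*, miR-615-3p and miR-574-3p, were read on 2 arrays of 67NR and on no other, with 67NR means from 12.1 to 20.1 units. Of the 4 that met the criterion but are not listed, miR-196a (367 ± 54.2) and miR-10a* (17.8 ± 3.49) belong to Hox loci and miR-431* (20.7 ± 1.91) to Dlk1-Dio3. The last, miR-135a* (27.7 ± 3.88 in 67NR and 11.2 ± 1.91 in 4T1), is of neither locus. In the opposite direction, 20 miRNAs were unread in 67NR and read on each of the 9 other arrays.

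The 5 tested miRNAs outside the list whose scaled levels over the 12 arrays were most like the mean of the 10 were miR-10b, miR-196a, miR-135a*, miR-582-5p and miR-290-5p, with Pearson's r from 0.999 to 1.000. Among the 10 the r of a pair was 0.993 to 1.000 over 45 pairs. These values describe a pattern of 3 arrays above a floor and 9 at it, which any miRNA with that pattern shares, and 17 miRNAs outside the list had an r over 0.99. Of the 5, miR-10b and miR-582-5p were each read on 2 arrays outside 67NR. The unscaled signal of miR-10b was 508 ± 72.3 in 67NR, 17.6 ± 4.05 in 168FARN, 1.18 ± 0.75 in 4TO7 and 5.87 ± 1.14 in 4T1.

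The signals of the hairpin partners were not used in the choice of the 10, but the list of partners was made with earlier results of these data known. They were the opposite arms and the miRNAs of the same loci, 17 in number. Of them 5 were read on all 67NR arrays, 2 were unread in 67NR and read elsewhere, and 10 were unread on every array. A similar share of the 577 miRNAs on the array was read on all 67NR arrays, so the 5 do not set the partners apart. Of the 17 partners, 6 could be tested by limma across all 224 miRNAs. The 67NR arrays were set against the other lines together (their mean) and singly. In the first comparison 5 of the 6 were higher in 67NR and 1 was lower, where 94.6% of all 224 were called, 50.4% higher and 44.2% lower. Against 168FARN 87.9% were called (47.8% higher, 40.2% lower), against 4TO7 79.9% (48.2% and 31.7%) and against 4T1 79.5% (47.3% and 32.1%). With so many miRNAs called, a partner that is higher is not set apart by its call.

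miR-374, the neighbour of miR-421 in Ftx, read 267, 252 and 210 units in 67NR. The 168FARN arrays read 87.0, 71.5 and 53.1, the 4TO7 arrays 25.7, 26.0 and 31.0 and the 4T1 arrays 48.5, 55.1 and 48.2. On these unscaled signals the 67NR arrays lay above all others, 168FARN and 4T1 overlapped and 4TO7 was lowest, while miR-421 itself was near 10 units in both 168FARN and 4T1. After scaling the 67NR arrays were again above all others, 168FARN lay above 4T1, and 4T1 and 4TO7 overlapped. miR-374 was 10.8-fold higher in 67NR than the mean of the others (log2 difference 3.43 ± 0.06, SE; limma, adjusted p = 1.42e-13). The log2 difference was 3.01 against 168FARN, 3.72 against 4TO7 and 3.56 against 4T1 (adjusted p at most 3.16e-12, limma), and 3.01 against the 168FARN array on slide 1. With no scaling it was 2.40 in the first comparison. The other strand, miR-374*, was unread on all arrays.

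miR-423-5p is the opposite arm of miR-423-3p and was read on all 12 arrays. It read 151, 159 and 127 units in 67NR. The 168FARN arrays read 136, 98.5 and 83.5, the 4TO7 arrays 44.1, 44.7 and 50.9 and the 4T1 arrays 77.7, 76.3 and 64.0. On these unscaled signals 168FARN replicate 1 overlapped 67NR, and after scaling the lines were apart. It was 4.20-fold higher in 67NR than the mean of the others (log2 difference 2.07 ± 0.03, SE; limma, adjusted p = 9.57e-14), with log2 differences of 1.68 against 168FARN, 2.22 against 4TO7 and 2.31 against 4T1. With no scaling the first was 1.04 (adjusted p = 1.89e-06, limma), and that against 168FARN was 0.48 (adjusted p = 0.0136). The lowest bound of miR-423-3p, 2.05-fold, and the 4.20-fold of its partner come from different kinds of value and are not compared.

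In the X-linked cluster around miR-542-5p the 4 miRNAs that could be tested, the partner arm among them, went different ways. miR-542-3p, known for targeting survivin, read 24.4, 25.9 and 20.8 units in 67NR. The 168FARN arrays read 18.6, 13.8 and 11.5, the 4TO7 arrays 12.7, 15.2 and 15.9 and the 4T1 arrays 21.4, 22.6 and 16.4. The unscaled signals of 67NR and 4T1 overlapped. It was read on 1 array of 168FARN, none of 4TO7 and all 3 of 4T1, and after scaling it was at least 2.31-fold higher in 67NR than in 4TO7. The log2 difference from the mean of the others was 1.38 ± 0.04 (SE; limma, adjusted p = 4.02e-11). The 3 arrays each of 168FARN and 4T1 were at the floor, where their spread is 0 by construction. This SE and p therefore do not measure the spread between those arrays. With no scaling the difference was 0.50, and 0.24 against 4T1 (limma, adjusted p = 0.172).

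miR-450a-5p was read on all 12 arrays, at 33.9, 32.9 and 28.8 units in 67NR. The 168FARN arrays read 31.0, 25.3 and 16.9, the 4TO7 arrays 24.5, 30.01 and 28.7 and the 4T1 arrays 31.2, 34.7 and 29.4. These signals overlapped between the lines. Scaled, it was 2.36-fold higher in 67NR (log2 difference 1.24 ± 0.08, SE; limma, adjusted p = 2.58e-08), and with no scaling the call was lost (0.21, adjusted p = 0.188).

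miR-322, a miRNA with the seed of the miR-16 family, read 130.4, 129.7 and 98.6 units in 67NR. The 168FARN arrays read 374.7, 313 and 233, the 4TO7 arrays 180.2, 179.5 and 211 and the 4T1 arrays 210.0, 222 and 176. On these signals the 67NR arrays were the lowest. Scaled, it was 0.10 ± 0.04 (log2, SE) above the mean of the others (limma, adjusted p = 0.0327), a difference that turned to -0.93 with no scaling and to -0.44 with the 75th percentile of all probes, so its direction is not settled. The call held in 7 of 12 fits that leave out 1 array and was lost with a slide term (0.12, adjusted p = 0.161, limma).

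miR-503, from the same cluster, was the partner that fell: it read -2.69, -0.895 and -0.860 units in 67NR. The 168FARN arrays read 78.8, 63.8 and 50.05, the 4TO7 arrays 31.9, 34.4 and 36.2 and the 4T1 arrays 38.8, 38.3 and 29.0. It was unread on every 67NR array and read on each of the others. After scaling it was at least 1.86-fold lower in 67NR than in 168FARN and at least 1.54-fold lower than in 4TO7. Against 4T1 no scaled bound above 1 could be given. Unscaled, the 4T1 arrays read 29.0 to 38.8 units, and the lowest signal read on a 67NR array was 13.3 to 18.5. The log2 difference from the mean, with 67NR at the floor, was -1.24 ± 0.03 (SE; limma, adjusted p = 5.79e-12). The floored 67NR values have a spread of 0, so this SE and p do not measure the spread between its arrays. With no scaling the difference was -1.58 from the mean and -1.31 against 4T1 (limma, adjusted p = 1.01e-06 for 4T1). From the mean it was -4.17 with the software's total signal, and 0.12 with the normexp background (limma, adjusted p = 0.0707 for the latter). miR-351 of the same cluster was unread in 67NR, at -2.23 to 0.978 units, and read on 2 arrays of 4T1, where it was 15.2 to 17.6.

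The 10 partners unread on every array were miR-215, miR-218-1*, miR-218-2*, miR-322*, miR-374*, miR-450a-3p, miR-450b-3p, miR-450b-5p, miR-503* and miR-590-3p. The opposite arms of miR-218, at -1.19 to 0.389 units in 67NR, and of miR-590-5p, at -0.801 to 1.91, were at background where the listed strands read 172 to 386. On slide 1 alone, against 168FARN replicate 1, the log2 differences of the 6 tested partners were 3.01 for miR-374, 1.63 for miR-423-5p, 1.57 for miR-450a-5p, 1.43 for miR-542-3p, -0.13 for miR-322 and -1.63 for miR-503.

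**Figure D4:**
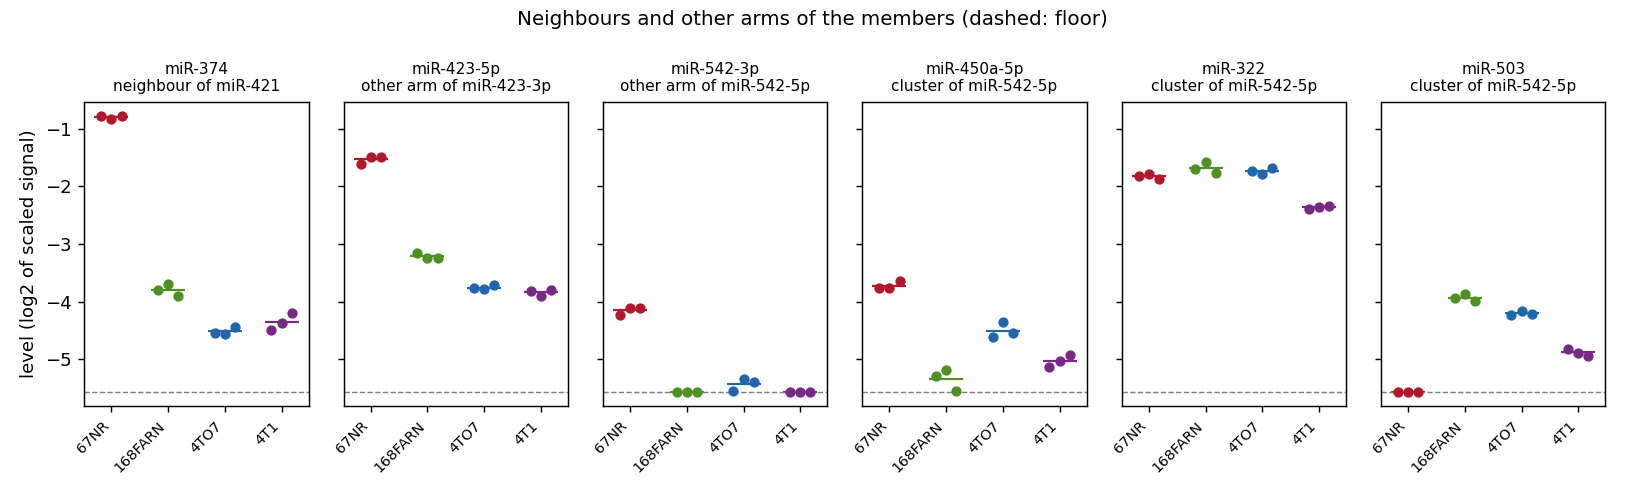
Level (vertical axis, log2 of the scaled signal) of the 6 tested partners on the 3 arrays of each line; points are arrays, bars are means and the dashed line is the floor of -5.58. At these scaled levels miR-374, miR-423-5p, miR-450a-5p and miR-542-3p are highest in 67NR with no overlap. The unscaled signals of miR-423-5p, miR-450a-5p and miR-542-3p overlapped between 67NR and other lines. miR-322 differs by 0.10 between 67NR and the mean of the others, and miR-503 is at the floor in 67NR and above it on the other 9 arrays.

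Marker miRNAs of other cell types were looked at beside these results. Of 6 epithelial markers (the miR-200 family and miR-205) none was read on all arrays of any line, although all 4 lines are labelled as breast cancer. Their summed signal was 21.1 to 37.3 units on the 67NR arrays, with 2 of the 6 read on some array, and -7.86 to 1.78 on the others. Of 4 measured mesenchymal markers none was read in 67NR and 2 were in 168FARN. Blood and muscle markers were unread in 67NR (0 of 5 and 0 of 4), and 1 of each was read in 168FARN. Of 5 neural markers miR-9 was read on all arrays of every line, and miR-219 also on all arrays of 168FARN. In 67NR, 4TO7 and 4T1 a further neural marker was read on some array. The part of these differences in the levels of the 10 miRNAs was not tested.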

How the data were processed

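The deposited files hold the spot signals of 12 one-colour arrays. Per the file headers, Feature Extraction 10.2.1.3 made the deposited intensity values by subtracting a spatially detrended background, with no scaling between arrays. The series' value table equals these signals (largest difference 0), and columns of no sample numbered 0. The files give positions on build mm9 for 20 of the 25 probes of the 10 miRNAs and mark the other 5 as unmapped.

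Control spots and 284 to 508 uneven or outlier spots per array were left out, and spots of a probe were averaged. Signals were scaled to the 75th percentile, per array, of the 170 probes read on all 12 arrays, floored at 0.0209 and taken to log2, and the brightest probe stood for each miRNA. limma 3.58.1 in R 4.3.3 fitted the 4 lines to the 224 miRNAs, of 577 (1712 probes), read on all 3 arrays of at least 1 line. Calls needed an adjusted p (Benjamini-Hochberg, two-sided) under 0.05. The fit was tested on simulated data. Scripts used python 3.11.15, numpy 2.4.6 and pandas 2.3.3.

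The members, the marker lists and the list of partners were chosen with earlier results of these data known. Named were the 10 miRNAs, their opposite arms, neighbours within 10000 bases or in fixed lists, holders of the same seed, the 5 most alike by Pearson's r and those at the threshold. Repeat numbers did not pair the samples. Alternatives were other scalings, background, floors, filters, calls, probe summaries, slide terms and arrays left out.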

Additional observations from a re-analysis of the deposited data

Results flagged for a closer look

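The 4 control probes named hur_5, which enter no comparison, averaged 179.9 units on the lowest 67NR array and 207 on the highest, against 1.25 to 6.36 on the 9 arrays of the other lines. They were picked out because a signal stood above the level of the other lines outside the main measurement. What these probes bind is not given in the sources used here, and their relation to the 10 miRNAs was not tested.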

How the results depend on the processing

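The count of listed miRNAs that meet the rule was 10 with outlier spots kept or with any probe in place of the brightest, 7 by the software's detection flag and 3 by its positive and significant mark. Of 90 recomputed lower bounds of the 10 miRNAs 17 moved by less than the spread, 72 moved by more and 1 changed sign, that of miR-423-3p with the mean of all probes (-0.054, log2). The 17 include the 10 with the floor halved, which could not move, since their limits stayed at those of the main setting. The number of miRNAs called was 212 for 67NR against the mean of the others, and 210 to 213 with 1 array left out; it was 177 to 181 against 4TO7, 177 to 180 against 4T1 and at most 196 against 168FARN. The higher share of calls moved from 53.3% to 45.7% with all probes in the percentile, 36.8% with no scaling, 46.2% with quantile scaling and 79.2% with the normexp background, as the median difference of all miRNAs moved from 0.19 (log2) to -0.20, -0.45, -0.14 and 0.55. miR-322 against the mean turned to -0.44, -0.93 and -0.58 with the first 3 of these, -0.35 with the mean of all probes and -0.078 with the software's total signal; against 4T1 it turned from 0.53 to -0.18, -0.77 and -0.24 with the same 3 scalings. With the normexp background miR-322 turned to 0.084 against 168FARN and 0.044 against 4TO7, and miR-503 to 0.12 against the mean, 0.077 against 168FARN and 0.41 against 4T1. The cause of these turns was not tested. With the replicate number as a block 212 miRNAs were called. Arrays with the same number did not deviate together (18 pairs, r from -0.80 to 0.56, median 0.01), so the block pairs nothing. Slide 1 alone gives no value against 4TO7, 4T1 or the mean, since it holds no array of 4TO7 or 4T1. What limits the 10 miRNAs is signal over background: 12.6 to 18.5 units were needed to be read.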
